A study of Gallus gallus with 2 samples.

Results

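The glycolytic enzymes of chicken breast muscle were examined as a set of 10 genes, GPI, ALDOC, TPI1, GAPDH, PGK1, PGAM1, ENO3, PKM, LDHA and LDHB. They were picked by gene symbol from 15073 listed genes, all of which had a fragment in the control group. Of the 10 genes, 7 were listed under their symbols, and TPI1, PGK1 and LDHA were not found by symbol and were not analysed here. The test group IV library came from 12-week-old Xichuan black-bone chickens that received the basal diet with 0.8% added tyrosine, and the control group library came from birds of the same breed and age on the basal diet alone. In each group the breast muscle RNA of 3 birds was pooled and sequenced as 1 library, so that there are no replicates, the spread between birds is unknown, and no test of the diet was possible. All intervals given below are 95% intervals for counting error only, and they do not cover differences between birds, pools or library preparations.

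Glycolysis splits glucose into pyruvate and yields ATP without oxygen. Chicken breast muscle is built mainly of fast glycolytic fibers, which draw on glycogen for short bursts of work and turn pyruvate into lactate. GPI converts glucose 6-phosphate into fructose 6-phosphate, aldolase cleaves the doubly phosphorylated sugar, GAPDH carries out the oxidation step that reduces NAD+, PGAM1 and enolase rearrange the phosphorylated product, pyruvate kinase forms pyruvate with a gain of ATP, and lactate dehydrogenase interconverts pyruvate and lactate. Several steps have isoforms with a known tissue preference: ENO3 is the muscle enolase, ALDOC is the aldolase best known from brain, and LDHB encodes the heart-type subunit of lactate dehydrogenase. GAPDH is also a widely used reference gene, and in this study it served with β-actin (ACTB) to normalize qRT-PCR.

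The primers that read the reference genes in the study are shown because the qRT-PCR values depend on how stable these transcripts are. They are written in lower case from 5′ to 3′, and their position in the genome was not determined here.
GAPDH forward: tgatggtccacatggcatcc
GAPDH reverse: gggaacagaactggcctctc
ACTB forward: gagagaagatgacacagatc
ACTB reverse: gtccatcacaataccagtgg
All 4 primers have 20 bases, of which 11 and 12 are G or C in the GAPDH pair and 9 and 10 in the ACTB pair.

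The files gave 14318101 counted fragments for test group IV and 13135159 for the control group. Fast skeletal muscle markers were abundant in the libraries, with a summed FPKM (the fragment count divided by the length of the transcript and the depth of the library) of 33083 in test group IV and 31104 in the control group over the 7 of 12 that were listed. PVALB, 1 of the 7, was nearly absent, with an FPKM of 0.187 in test group IV and 0.0408 in the control group. The title of the series speaks of skin, whereas the labels name breast muscle. Of 6 keratinocyte markers 2 were listed, with a summed FPKM of 5.06 in test group IV and 5.69 in the control group, and KRT5 and KRT14 were not found by symbol. Genes of the mitochondrial genome took 9.05% of the fragments in test group IV and 7.69% in the control group. The summed FPKM of the melanocyte markers was 11.6 in test group IV and 0.674 in the control group, with all 6 listed of 9 higher in test group IV. All 4 adipocyte markers listed of 5 were lower in test group IV, with a summed FPKM of 44.5 against 69.5 in the control group, and CIDEC was at 0 fragments in test group IV and at 5 in the control group. The ratio interval of CIDEC, which ended at 1.001, included 1. Only genes with a fragment in the control group were listed, so a marker could be listed at 0 fragments in test group IV but not in the control group. All 7 slow muscle markers listed of 9 were lower as well, with a summed FPKM of 8343 in test group IV and 9781 in the control group, nearly all of it from TNNC1. Only 3 of the 7 had a mean FPKM of at least 1, and the ratio intervals of MB, MYOZ2, TNNT1 and MYL3 included 1. Of the 6 fast markers with a mean FPKM of at least 1, 5 were higher and 1 lower. Over the 11010 genes that reached an FPKM of 1 in either library, 39.4% were lower. Immune markers (4 of 4 listed, 2 higher and 2 lower, with most of the sum from CD74) summed to 231 and smooth muscle and endothelial markers (4 of 6) to 61.1 FPKM in test group IV, against 177 and 76.3 FPKM in the control group. The 2 hemoglobin genes listed of 10 erythrocyte markers summed to 23.0 FPKM in test group IV and 23.2 FPKM in the control group. The part of these tissue differences in the results below was not tested, and in bulk RNA fewer cells of a type and less RNA per cell cannot be told apart.

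GAPDH was among the most abundant transcripts of the muscle. The gene (ENSGALG00000014442) lies on chromosome 1 of Galgal5 from 76950864 to 76956805, and it had 369745 fragments in test group IV and 402456 in the control group. Its FPKM was 8372 in test group IV and 9935 in the control group. It ranked 11 by FPKM in test group IV and 8 in the control group. Its neighbours in test group IV were MT-CYB, which encodes mitochondrial cytochrome b, with an FPKM of 8567 and TNNC1, which encodes the slow and cardiac troponin C, with an FPKM of 8333. In the control group it stood between TNNT3, the fast skeletal troponin T gene, at 9943 and TNNC1 at 9768. GAPDH alone took 2.58% of all fragments in test group IV (interval from 2.57% to 2.59%) and 3.06% in the control group (interval from 3.05% to 3.07%). This makes GAPDH a transcript of the same abundance class as the contractile proteins of the fiber.

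Next in abundance among the listed enzymes came PKM, PGAM1, ENO3 and GPI. PKM (ENSGALG00000001992, chromosome 10 from 1506431 to 1523686), the pyruvate kinase gene expressed in muscle, had 174748 fragments and an FPKM of 2564 in test group IV and 202704 fragments and an FPKM of 3243 in the control group. It ranked 22 by FPKM in test group IV and 20 in the control group, and took 1.22% and 1.54% of all fragments in these libraries. PGAM1 (ENSGALG00000007606, chromosome 6 from 22343554 to 22345932), a phosphoglycerate mutase gene, had 82226 fragments and an FPKM of 1899 in test group IV, against 72703 fragments and an FPKM of 1830 in the control group. It stood at rank 28 in test group IV and at rank 33 in the control group.
ENO3 (ENSGALG00000031403), which lies on an unplaced scaffold from 749 to 7606, had 99035 fragments and an FPKM of 1674 in test group IV, against 120175 fragments and an FPKM of 2215 in the control group. Its rank was 33 in test group IV and 26 in the control group, so that PGAM1 stood above ENO3 in test group IV and below it in the control group. GPI (ENSGALG00000004956, chromosome 11 from 11103487 to 11124330) had 43355 fragments and an FPKM of 612 in test group IV and 39293 fragments and an FPKM of 605 in the control group, at ranks 61 and 66. GAPDH and these 4 genes were the only listed enzymes of the set among the 100 genes with the highest FPKM in each library.

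ALDOC and LDHB were far less abundant. ALDOC (ENSGALG00000026077, chromosome 19 from 5736768 to 5740448) had 354 fragments and an FPKM of 16.5 in test group IV and 300 fragments and an FPKM of 15.3 in the control group, with ranks of 2900 and 2952. LDHB (ENSGALG00000035836, chromosome 1 from 67084337 to 67094047) had 212 fragments and an FPKM of 6.79 in test group IV and 199 fragments and an FPKM of 6.95 in the control group, with ranks of 5491 and 5240. The FPKM of GAPDH was thus 1233 times that of LDHB in test group IV and 1430 times in the control group. As a share of all fragments, ENO3 took 0.692% in test group IV and 0.915% in the control group, PGAM1 took 0.574% and 0.553%, and GPI took 0.303% and 0.299%. ALDOC and LDHB took 0.00247% and 0.00148% in test group IV and 0.00228% and 0.00152% in the control group. By the number of fragments, without the correction for length, GAPDH ranked 4 in test group IV and 3 in the control group, PKM 9 and 8, ENO3 19 and 14, PGAM1 22 and 23, and GPI 37 and 41. ALDOC and LDHB were thus the least abundant of the 7 listed enzymes, although their counts were above those of the median listed gene (107 fragments in test group IV and 93 in the control group).

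**Figure D1:**
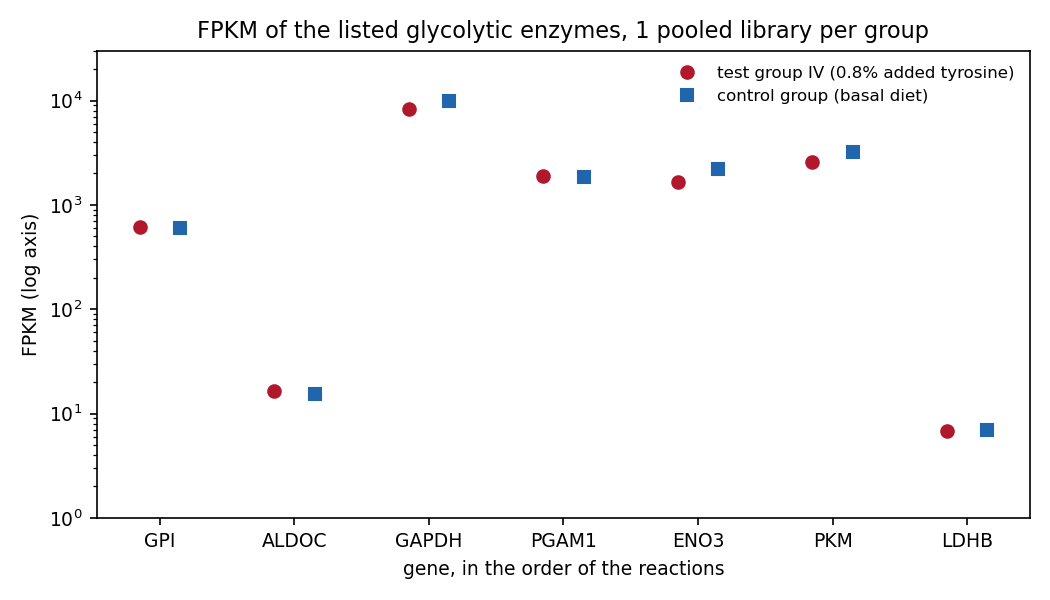
FPKM of the 7 listed glycolytic enzymes on a log axis, in the order of the reactions, with 1 point per library (circles, test group IV; squares, control group). GAPDH was highest in both libraries (8372 in test group IV and 9935 in the control group), PKM, PGAM1, ENO3 and GPI lay between 605 and 3243, and ALDOC and LDHB did not exceed 16.5.

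Together the 7 enzymes took 5.38% of all fragments in test group IV (interval from 5.36% to 5.39%) and 6.38% in the control group (interval from 6.37% to 6.39%), which is 1.00 percentage point less in test group IV. The smaller share came from 3 genes. The FPKM ratio, with test group IV over the control group, was 0.756 for ENO3 (interval from 0.750 to 0.762), 0.791 for PKM (interval from 0.786 to 0.796) and 0.843 for GAPDH (interval from 0.839 to 0.846). GPI, the first of the enzymes in the order of the reactions, and PGAM1, which acts between GAPDH and enolase, did not share this direction. The FPKM ratio was 1.04 for PGAM1 (interval from 1.03 to 1.05) and 1.01 for GPI (interval from 0.998 to 1.03), and both turned to slightly lower in test group IV when the libraries were scaled by TMM (the trimmed mean of M-values), with log2 ratios of -0.038 for PGAM1 and -0.074 for GPI. ALDOC had an FPKM ratio of 1.08 (interval from 0.925 to 1.27) and LDHB of 0.977 (interval from 0.801 to 1.19), and at these depths neither could be told from a ratio of 1. In all, 3 of the 7 genes had a higher and 4 a lower FPKM in test group IV, which became 1 and 6 after TMM scaling.

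No enzyme differed by the 2-fold that the study used as its threshold, together with a limit on the q-value. The shares given below use the fold alone. As background, 11010 genes reached an FPKM of 1 in either library, and of these 3.10% had a test group IV value of 2-fold or more above the control group and 3.31% a value of 2-fold or more below it. Genes without a fragment in the control group are missing from this background, whereas genes without one in test group IV were kept. At the smaller difference of 25% higher or 20% lower, ENO3 and PKM passed as lower and no enzyme passed as higher, beside 15.5% of all 11010 genes that passed as lower (1705 genes) and 24.0% that passed as higher (2641 genes), a split that became 2194 lower and 1886 higher genes with median ratio scaling. Because abundant genes have less counting error, the 5 abundant enzymes were also set beside the 446 genes that reached an FPKM of 100 in either library. Of these, 14.1% were lower by 20% or more and 12.6% higher by 25% or more, while 5.38% passed the 2-fold limit as lower and 0.448% as higher. The ratio of ENO3 was above that of 50 of the 446 genes, the ratio of PKM above that of 61, and the ratio of GAPDH above that of 75, which places GAPDH at 16.8% from the lower end. GPI and PGAM1 stood near the middle, above 187 and 214 genes. The median log2 FPKM ratio was -0.03 over the 7 enzymes, which is the value of LDHB, beside 0.09 over the 11010 genes. Over the 5 abundant enzymes, a choice made after the values were seen, it was -0.25, beside 0.06 over the 446 abundant genes. More genes were higher than lower in test group IV in the background itself (39.4% of the 11010 genes were lower), and scalings that bring the median of all genes close to 0 lowered every log2 ratio by about 0.09.

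**Figure D2:**
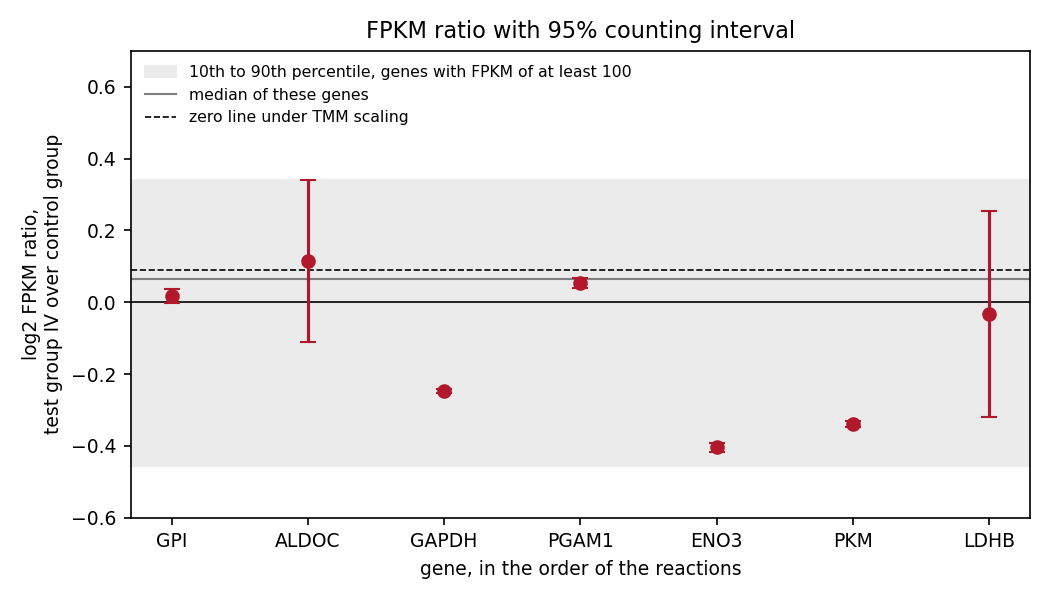
Log2 FPKM ratio (test group IV over the control group) for each listed enzyme, with bars for the 95% counting interval. The band holds the middle of the 446 genes with an FPKM of at least 100 (10th to 90th percentile), the grey line is their median (0.06), and the dashed line is the zero line under TMM scaling. GAPDH (-0.25), PKM (-0.34) and ENO3 (-0.40) lie in the lower part of the band, and GPI and PGAM1 lie near the grey line, above 0 but below the dashed line (lower in test group IV under TMM scaling), and ALDOC and LDHB have wide intervals.

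GAPDH was then set against the other enzymes, a comparison that does not depend on how the libraries are scaled. Its FPKM was 4.41 times that of PGAM1 in test group IV and 5.43 times in the control group, a quotient of 0.812 (interval from 0.803 to 0.821). Relative to GPI it was 13.7 times in test group IV and 16.4 times in the control group (quotient 0.833, interval from 0.821 to 0.845), and relative to ALDOC the quotient was 0.779 (interval from 0.665 to 0.911). The relation to ENO3 and PKM ran the other way. The quotient of the GAPDH-to-ENO3 relation in test group IV over that in the control group was 1.11 (interval from 1.10 to 1.13). GAPDH had 3.27 times the FPKM of PKM in test group IV and 3.06 times in the control group (quotient 1.07, interval from 1.06 to 1.07). The interval for LDHB, from 0.707 to 1.05, included 1. GAPDH therefore lay between a pair of enzymes that were lower still and 3 enzymes relative to which it was lower.

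The log2 FPKM ratio of GAPDH was 0.24 below the median of the other 6 enzymes, at -0.25 against -0.01. The distance depended on which enzymes it was taken against. Against the 4 other enzymes with an FPKM of at least 100, a choice made after the values were seen, the difference was -0.09. Against the summed fragments of the other 6 enzymes, 399930 in test group IV and 435374 in the control group, it was nearly absent. Of all fragments of the 7 enzymes, GAPDH held 48.0% in test group IV (interval from 47.9% to 48.2%) and 48.0% in the control group (interval from 47.9% to 48.1%). Within the same total, ENO3 took 12.9% in test group IV and 14.3% in the control group, PKM 22.7% and 24.2%, PGAM1 10.7% and 8.68%, and GPI 5.63% and 4.69%. The share of GAPDH thus stayed level, while among the other enzymes ENO3 and PKM held less, and PGAM1 and GPI more, of the total in test group IV.

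As the other reference gene of the qRT-PCR, ACTB, which encodes β-actin, had 5755 fragments and an FPKM of 57.2 in test group IV and 4577 fragments and an FPKM of 49.6 in the control group. The FPKM of GAPDH was 146 times that of ACTB in test group IV and 200 times in the control group, a quotient of 0.731 (interval from 0.703 to 0.760) and a difference of -0.45 on the log2 scale. The reference genes of the qRT-PCR therefore did not keep the same relation in these libraries. Of 16 housekeeping genes in a fixed list, 14 were listed, and GAPDH was lower in test group IV relative to 12 of them, for 10 of which the counting interval excluded equality. As 19.1% of the 11010 genes had a lower ratio than GAPDH, it was lower relative to most genes, and the count is not particular to the housekeeping genes. The difference in log2 ratio was smallest for RPL4 (0.01) and B2M (-0.02), a ribosomal protein gene and the β2-microglobulin gene, and its intervals included 0 for both and for GUSB. It was -0.81 for HPRT1, a purine salvage enzyme, -0.85 for the tubulin gene TUBB and -1.06 for the translation elongation factor gene EEF1A1. Relative to YWHAZ, a 14-3-3 protein gene, GAPDH was higher in test group IV (0.29, interval from 0.15 to 0.43). The median difference over the 14 genes was -0.44. These genes also differed among themselves, with FPKM ratios of 1.76 for EEF1A1, 1.52 for TUBB, 1.48 for HPRT1, 0.853 for B2M and 0.689 for YWHAZ.

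**Figure D3:**
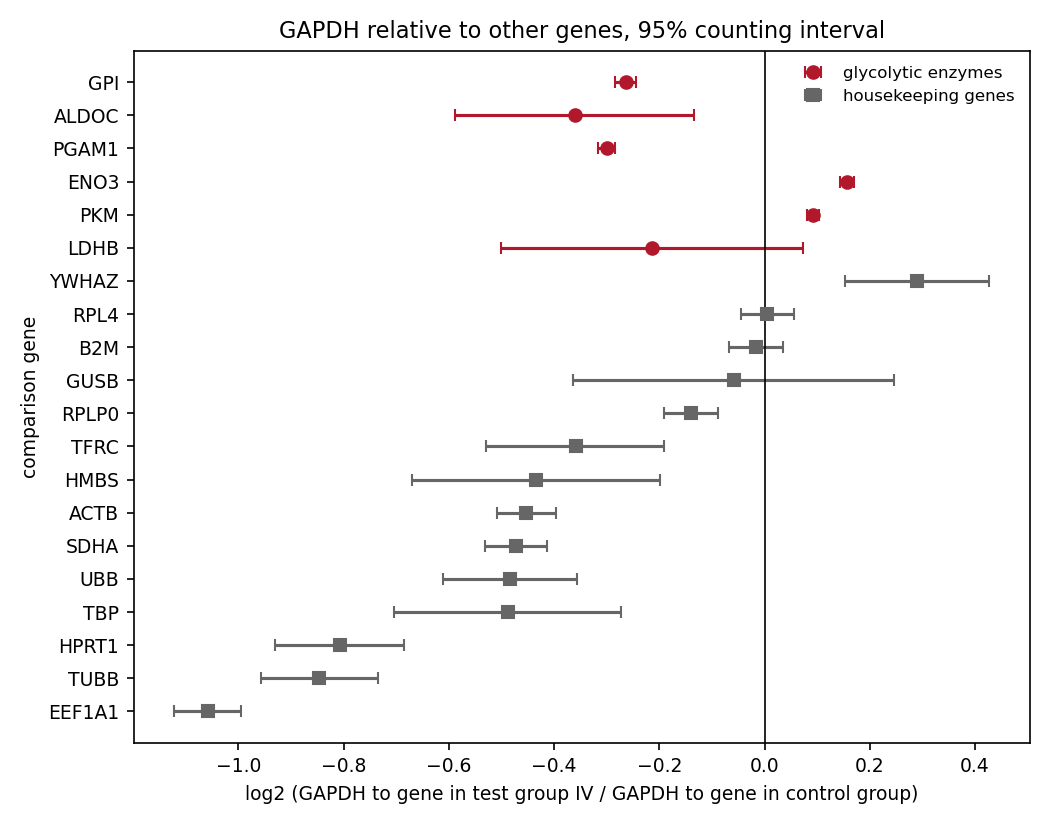
Difference in log2 FPKM ratio between GAPDH and each other listed enzyme (circles, in the order of the reactions) or housekeeping gene (squares, in the order of the values), with 95% counting intervals. Values left of 0 mean that GAPDH was lower relative to that gene in test group IV. GAPDH lies left of 0 for PGAM1 and GPI (-0.30 and -0.26) and right of 0 for ENO3 and PKM (0.16 and 0.09).

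The isoforms of each step were compared by their share of the summed FPKM of that step. ENO3 made up 96.6% of enolase in test group IV and 97.1% in the control group, and ENO1, the enolase of most other tissues, had an FPKM of 59.1 in test group IV and 66.2 in the control group. The FPKM of ENO3 was 28.3 times that of ENO1 in test group IV and 33.5 times in the control group (quotient 0.847, interval from 0.808 to 0.887), so that both of these enolases were lower and ENO3 more so. The third enolase gene, ENO2, had only 9 fragments in test group IV and 2 in the control group. Its ratio was 4.13 (interval from 0.854 to 39.3). ALDOA, the muscle aldolase, was not found by symbol, which leaves the aldolase step without its main isoform here. LDHB was likewise the only lactate dehydrogenase A or B gene analysed, and the balance of the muscle and heart-type subunits was not analysed here.
GAPDH and PGAM1 each overlapped another listed gene. A gene without a symbol shared 141 bases with GAPDH and had 0 fragments in test group IV and 12 in the control group. RRP12, a ribosome assembly gene, shared 1134 bases with PGAM1 and had 715 fragments in test group IV and 737 in the control group, which is 0.870% and 1.01% of the PGAM1 count. Fragments that match processed copies of these genes elsewhere in the genome were not separated from those of the genes themselves.

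The other genes of the pathway were taken from fixed lists of 84 symbols, of which 57 were listed and 51 had a mean FPKM of at least 1. Of these 51, 26 were higher and 25 lower in test group IV (19 and 32 after TMM scaling), 5 were higher by 25% or more and 8 lower by 20% or more. These are 9.80% and 15.7% of the genes, close to or below the share of all 11010 genes. The median log2 FPKM ratio of the 51 genes was 0.02, and it became -0.07 with TMM scaling.

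In the upper part of the pathway 9 of 12 genes were listed, and of the 8 with a mean FPKM of at least 1, 4 were higher and 4 lower (3 and 5 after TMM scaling). PFKM, the muscle phosphofructokinase that commits sugar to glycolysis, had 124263 fragments and an FPKM of 2613 in test group IV and 152845 fragments and an FPKM of 3504 in the control group. Its FPKM ratio of 0.746 (interval from 0.740 to 0.751) was close to that of ENO3, and it made up 99.8% of the phosphofructokinase FPKM in each library. PFKP, the platelet isoform, had 266 fragments in test group IV and 325 in the control group and a like ratio of 0.751 (interval from 0.636 to 0.886). FBP1, a fructose bisphosphatase that runs the step backwards, had a ratio of 1.96, with only 47 fragments in test group IV and 22 in the control group and an interval from 1.16 to 3.41. The far more abundant fructose bisphosphatase gene FBP2 had an FPKM of 578 in test group IV and 561 in the control group. Its ratio was 1.03 (interval from 1.01 to 1.05). For the hexokinases, which trap glucose in the cell, the FPKM was 156 (HK1) and 27.4 (HK2) in test group IV, against 145 (HK1) and 31.0 (HK2) in the control group. HK1 was 5.71 times as abundant as HK2 in test group IV and 4.68 times in the control group (quotient 1.22, interval from 1.12 to 1.33).

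Beside the members, 5 of 12 genes of the lower steps were listed, and 3 of the 4 with a mean FPKM of at least 1 were higher (2 after TMM scaling). BPGM, which makes 2,3-bisphosphoglycerate, was the most abundant of them, with an FPKM of 376 in test group IV and 369 in the control group. Its ratio of 1.02 (interval from 1.00 to 1.04) turned to a log2 ratio of -0.06 with TMM scaling. LDHD, a mitochondrial dehydrogenase of D-lactate, had 124 fragments in test group IV and 71 in the control group, with a ratio of 1.60 (interval from 1.19 to 2.18). The ratios of both genes lay above those of GAPDH, PKM and ENO3.

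Of the genes of glycogen metabolism 13 of 19 were listed, and of the 12 with a mean FPKM of at least 1, 5 were higher and 7 lower, also after TMM scaling. GBE1, the glycogen branching enzyme, had 4205 fragments and an FPKM of 88.2 in test group IV, against 1194 fragments and an FPKM of 27.3 in the control group, a ratio of 3.23 (interval from 3.03 to 3.45). UGP2, which makes the UDP-glucose for glycogen synthesis, had the opposite direction, with 8237 fragments and an FPKM of 143 in test group IV, against 14847 fragments and an FPKM of 282 in the control group, a ratio of 0.509 (interval from 0.495 to 0.523). PPP1R3A, a muscle subunit that directs protein phosphatase to glycogen, had a ratio of 0.736 (interval from 0.715 to 0.758). PGM1, which interconverts glucose 1-phosphate and glucose 6-phosphate, was the most abundant gene of the list, with an FPKM of 1756 in test group IV and 1890 in the control group and a ratio of 0.929 (interval from 0.921 to 0.937).

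Among the regulators of the pathway 13 of 14 genes were listed, and 3 of them differed widely between the libraries. PDK4, a kinase that switches off pyruvate dehydrogenase, had 16297 fragments and an FPKM of 305 in test group IV, against 48055 fragments and an FPKM of 981 in the control group, a ratio of 0.311 (interval from 0.306 to 0.317). PDP1, a phosphatase that switches the same complex on, was also lower, with an FPKM of 71.3 in test group IV and 174 in the control group and a ratio of 0.411 (interval from 0.396 to 0.427). PFKFB3 makes fructose 2,6-bisphosphate, the activator of phosphofructokinase, and had 3972 fragments and an FPKM of 158 in test group IV, against 10131 fragments and an FPKM of 438 in the control group, a ratio of 0.360 (interval from 0.347 to 0.373). Its isoform PFKFB1 had an FPKM of 178 in test group IV and 175 in the control group. PFKFB3 therefore made up 45.8% of the summed FPKM of the 4 PFKFB genes in test group IV and 70.6% in the control group. Of the 12 regulators with a mean FPKM of at least 1, these 3 were lower by 20% or more and none was higher by 25% or more. Over all 11010 genes, 15.5% passed as lower and 24.0% as higher. By any amount, 7 of the 12 regulators were higher and 5 lower (3 and 9 after TMM scaling).

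Glucose and lactate transport had 8 of 13 genes listed. Of the 6 with a mean FPKM of at least 1, BSG, which encodes the partner protein of the lactate carriers, was the only one that was higher, with an FPKM of 69.2 in test group IV and 59.8 in the control group and a ratio of 1.16 (interval from 1.10 to 1.22). The glucose transporter gene SLC2A12 had 482 fragments in test group IV and 554 in the control group, with a ratio of 0.798 (interval from 0.705 to 0.903). The intervals of the remaining lower genes included 1. For pyruvate entry and the redox shuttles 9 of 14 genes were listed, of which 6 were higher and 3 lower (5 and 4 after TMM scaling). PDHX, a binding subunit of pyruvate dehydrogenase, had a ratio of 1.55 (interval from 1.41 to 1.69), GPD2, the mitochondrial arm of the glycerol phosphate shuttle, of 1.26 (interval from 1.20 to 1.32), and MDH2, the mitochondrial malate dehydrogenase and the most abundant gene of the list, of 1.22 (interval from 1.17 to 1.27). The other mitochondrial proteins of the list went in both directions. PDHB, a catalytic subunit of pyruvate dehydrogenase, had a ratio of 0.932 (interval from 0.870 to 0.998), and GOT2, the mitochondrial aspartate aminotransferase, of 0.902 (interval from 0.861 to 0.944). DLD had a ratio of 1.12 (interval from 1.07 to 1.17) and DLAT of 1.02 (interval from 0.936 to 1.12).

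**Figure D4:**
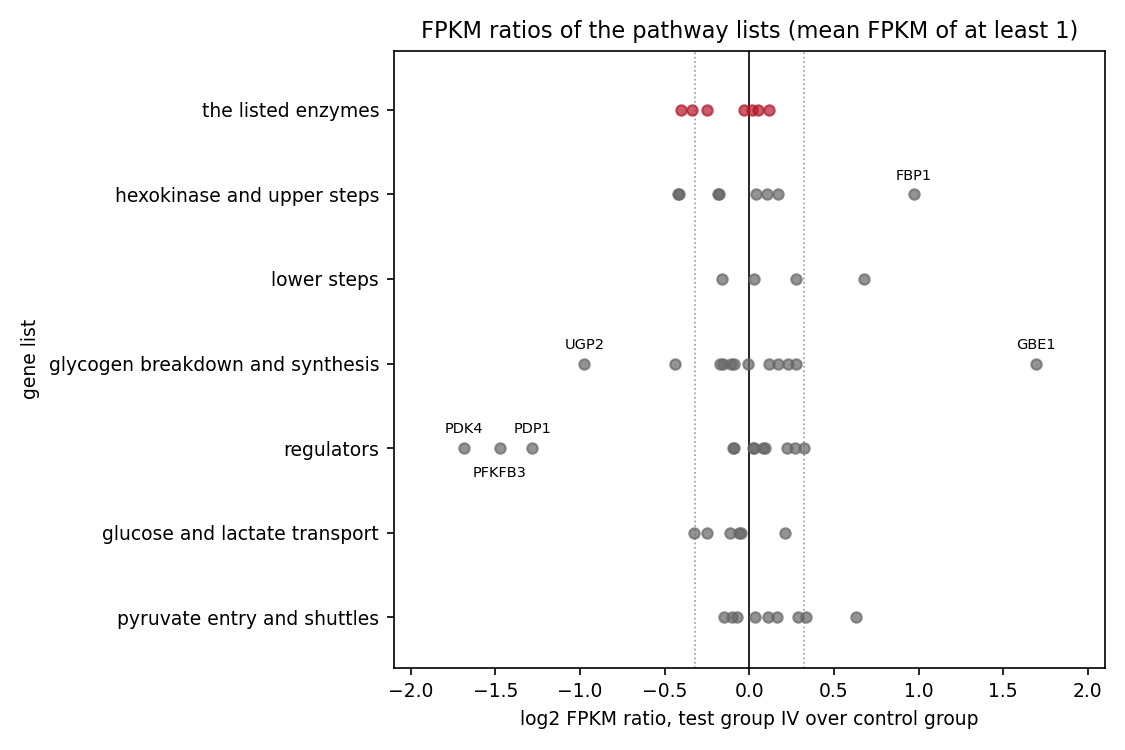
Log2 FPKM ratio (test group IV over the control group) for the 7 listed enzymes and for the genes of each fixed list with a mean FPKM of at least 1, with 1 point per gene and dotted lines at 25% higher and 20% lower. The enzymes stay between -0.40 and 0.11, whereas PDK4, PFKFB3, PDP1 and UGP2 lie far to the left and GBE1 and FBP1 to the right.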

How the data were processed

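RNA-seq was analysed from 1 library of pooled breast muscle RNA per group, grouped by the diet given in the labels. After read trimming by Seqtk, the authors used TopHat 2.0.9 for alignment to Galgal5 and StringTie 1.3.0 for the deposited counts, which are whole numbers of fragments. The submitters' notes also name HISAT2 without its role. The deposited FPKM values were calculated by the authors with a Perl script and used unchanged. The relative depth behind them, obtained from each gene's count-to-FPKM quotient, was 1.09 (test group IV over the control group). The quotient of the library totals was also 1.09, and that of TMM was 1.16. The paper states that its fragment values were normalized by TMM and that its fold changes came from FPKM. The FPKM ratios here were not scaled by TMM. For DCT and EDNRB2 the log2 ratios here, 4.98 and 3.94, have the size that the paper gives, with the opposite sign. The FPKM values that the paper gives for both genes were higher in test group IV, as they were here. Whether the counting used strand is not given in the sources used here. Every listed gene had a fragment in the control group, so that genes without one were not analysed here. No symbol was given for 5006 of the 15073 genes, 13 of which are among the 50 genes with the highest FPKM in the control group.

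FPKM ratios carry exact Clopper-Pearson intervals of the share of a gene's fragments from test group IV, and quotients of a pair of genes carry exact conditional intervals. Fragments were not corrected for PCR copies. With 1 library per group no test was made. The named genes are all members, of each other list those with a mean FPKM of at least 1 higher by 25% or lower by 20% or more and the most abundant gene, and the rank neighbours of GAPDH. Isoforms, ACTB, RPL4, GUSB, PDHB, GOT2, DLAT, DLD and markers were added after their values were seen. The members and lists were chosen with earlier results of these data known. Alternatives were median ratio, TMM (edgeR 4.0.16) and DESeq2 1.42.0 scaling, other library totals, pseudocounts of 1 and 0.1 and other filters. The intervals came from scipy 1.17.1 under Python 3.11.15. They were tested on simulated counts that held counting error only, which says nothing about differences between birds, pools or libraries.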

Additional observations from a re-analysis of the deposited data

How the results depend on the processing

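No paired analysis was possible because each group has 1 library, and no replicate could be left out for the same reason. Median ratio, TMM and DESeq2 size factor scaling shifted all log2 ratios by -0.09, -0.09 and -0.08. Under each of them only ALDOC, 1 of the 7 enzymes, stayed higher in test group IV. The log2 ratio of PGAM1 became -0.038, -0.038 and -0.027 and that of BPGM -0.061, -0.062 and -0.051. The median of the other 51 pathway genes became -0.066, -0.066 and -0.055, against 0.02 with the deposited FPKM values. GAPDH, ENO3 and PKM stayed lower under every scaling and pseudocount.

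The share of the 7 enzymes was 5.91% in test group IV and 6.91% in the control group without mitochondrial genes in the total, and 7.03% and 8.27% without the other genes among the 10 with the most fragments. Their median rank, 33 in each library by FPKM, was 22 in test group IV and 23 in the control group by fragments, and 23 in each when mitochondrial genes were left out. GAPDH minus the other enzymes ranged between -0.26 and -0.21 when each enzyme was left out, and was -0.15 against their mean and 0.0002 against their summed fragments. Against the median of the other 13 housekeeping genes in place of ACTB it was -0.43. Of the genes that reached an FPKM of 100 in place of 1, 2 (against 341) passed the 2-fold limit as higher, 24 (against 364) as lower, 56 (against 2641) passed the limit of 25% as higher and 63 (against 1705) that of 20% as lower. With a fragment in both libraries as the only condition these counts were 845, 800 and, for 20% lower, 2713. Median ratio scaling gave 282 higher and 437 lower genes at the 2-fold limit, and 1886 higher and 2194 lower genes at the smaller limit. Without replicates, no value here separates the diet from the birds or the library.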
